A study of Mus musculus with 6 samples.

Results

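Polycomb repressive complex 2 (PRC2) is the enzyme complex that methylates lysine 27 of histone H3 (H3K27), a mark of silenced genes. The expression of its 2 alternative catalytic subunits, its core partners, its accessory subunits and the demethylases that remove the mark was followed through muscle differentiation of C2C12 cells. The 10 genes were taken by name (Ezh1, Ezh2, Suz12, Eed, Rbbp4, Rbbp7, Jarid2, Phf19, Kdm6a and Kdm6b), by summing the estimated transcript counts of each library to gene symbols. All 10 were found among 25308 genes with a count, and all 10 were among the 15467 genes that passed the filter on low counts and were tested. C2C12 is an established line of mouse myoblasts that, when serum is reduced, stops dividing and forms multinucleated myotubes by fusion. Polyadenylated RNA was sequenced from 2 libraries each of myotubes at Day 7, reserve cells at Day 7 and myoblasts at Day 0. Reserve cells are the mononucleated cells that did not fuse in the same differentiating culture. All 3 groups are unmodified cells of this 1 line. Myotubes and reserve cells came from medium with 2% horse serum and were separated from each other by mild trypsin treatment, while myoblasts were harvested near confluence. Day 7 is the time given with the series, and the culture methods state a shorter interval for mature myotubes.

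In PRC2, either EZH1 or EZH2 carries the methyltransferase activity, and neither is active without SUZ12 and EED. EZH2 is the form typical of dividing cells, whereas EZH1 is also kept by cells that no longer divide. In muscle, PRC2 is known for silencing late muscle genes in myoblasts. The balance of the catalytic subunits during differentiation is the question that the comparison of these groups addresses here.

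The libraries held 15658875 to 20055078 estimated counts each. The myotube markers went with the labels, and the reserve cell markers separated reserve cells from myotubes but only in part from myoblasts. The summed level of 8 myotube markers was 27911 to 28052 CPM (counts of a library scaled to a fixed total, with TMM factors) in myotubes, 7358 to 7557 CPM in reserve cells and 217 to 222 CPM in myoblasts. Reserve cells thus held more myotube marker RNA than myoblasts, and the source of that RNA was not tested. The 8 reserve cell markers, Pax7 and Notch3 among them, summed to 3427 to 3583 CPM in myotubes, 17387 to 17828 CPM in reserve cells and 9852 to 9891 CPM in myoblasts. Most of that sum was Fn1, the gene of fibronectin, with a mean of 2833 CPM in myotubes, 14350 CPM in reserve cells and 6972 CPM in myoblasts. Against myoblasts, 4 of the 8 were called higher in reserve cells and 2 lower (Notch2 and Hey1), and Pax7 and Notch3 were not called. Of 5 leukocyte markers, Ptprc and Adgre1 had 0 counts in all 6 libraries, and the summed level of the 5 was 3.66 to 10.1 CPM. The 4 endothelial markers summed to at most 1.21 CPM. Of 5 adipocyte markers, Adipoq, Plin1 and Lep had 0 counts, and the 5 summed to 2.91 to 14.0 CPM. A count of 0 allows up to 3 counts, or 0.138 to 0.213 CPM depending on the library, with counting error only.

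Promoter sequences are shown for Ezh1 and for the 4 genes whose promoter held a core of the binding site of E2F factors, which control genes of S phase. The windows run from 250 bases before to 50 bases after the transcription start in the RefSeq annotation of GRCm38.p6, the assembly of mm10. Of the 10 genes, 9 were found in that table, with 2 start sites for Jarid2. Both strands were searched for the E2F cores TTCCCGC and TTGGCGC, for the cell cycle homology region TTTGAA and for the E-box CAGCTG, which reads the same on both strands. No matches overlapped. The positions below count the first transcribed base as 1. Matches are in capitals in chr11:101226414-101226713 for Ezh1 (minus strand), chr6:47594981-47595280 for Ezh2 (minus strand), chr11:79992856-79993155 for Suz12 (plus strand), chr2:34913927-34914226 for Phf19 (minus strand) and chr4:129335321-129335620 for Rbbp4 (minus strand).
Ezh1: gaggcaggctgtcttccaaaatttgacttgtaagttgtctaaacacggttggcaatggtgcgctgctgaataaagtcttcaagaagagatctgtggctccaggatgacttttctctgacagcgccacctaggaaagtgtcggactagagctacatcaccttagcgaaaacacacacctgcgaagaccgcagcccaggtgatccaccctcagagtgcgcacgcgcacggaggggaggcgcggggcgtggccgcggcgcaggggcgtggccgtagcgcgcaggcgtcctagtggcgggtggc
Ezh2: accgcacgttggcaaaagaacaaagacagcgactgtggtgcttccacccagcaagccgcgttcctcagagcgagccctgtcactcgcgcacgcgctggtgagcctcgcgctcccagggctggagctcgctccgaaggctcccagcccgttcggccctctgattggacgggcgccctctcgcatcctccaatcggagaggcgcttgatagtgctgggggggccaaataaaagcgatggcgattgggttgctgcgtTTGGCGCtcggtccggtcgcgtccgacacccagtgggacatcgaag
Suz12: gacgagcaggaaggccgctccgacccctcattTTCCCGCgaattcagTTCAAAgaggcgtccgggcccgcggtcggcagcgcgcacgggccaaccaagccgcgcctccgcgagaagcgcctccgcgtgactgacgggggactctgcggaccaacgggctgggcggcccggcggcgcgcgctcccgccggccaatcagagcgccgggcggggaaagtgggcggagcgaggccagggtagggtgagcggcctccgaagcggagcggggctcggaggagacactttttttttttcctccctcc
Phf19: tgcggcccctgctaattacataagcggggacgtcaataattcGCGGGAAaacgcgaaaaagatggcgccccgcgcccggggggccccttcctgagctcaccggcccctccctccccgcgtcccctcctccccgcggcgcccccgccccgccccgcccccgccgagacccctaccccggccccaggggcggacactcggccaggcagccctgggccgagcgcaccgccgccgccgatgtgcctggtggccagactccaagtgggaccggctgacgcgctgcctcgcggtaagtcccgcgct
Rbbp4: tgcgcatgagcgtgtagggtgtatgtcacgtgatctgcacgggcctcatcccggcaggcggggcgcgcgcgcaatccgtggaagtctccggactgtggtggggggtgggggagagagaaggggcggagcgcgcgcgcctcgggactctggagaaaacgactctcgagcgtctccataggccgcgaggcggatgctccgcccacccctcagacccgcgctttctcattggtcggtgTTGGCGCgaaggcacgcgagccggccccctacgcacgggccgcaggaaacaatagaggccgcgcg
The Ezh2 window held TTGGCGC from position 5, and the Rbbp4 window held it from position -15. The Suz12 window held TTCCCGC from position -218 and TTCAAA, the other strand of TTTGAA, from position -203. The Phf19 window held GCGGGAA, the other strand of TTCCCGC, from position -208. The Ezh1 window held none of the 4 motifs. An E2F core was thus present for 4 of the 9 genes, against 6.81% of all 32851 promoters in the table, with TTCCCGC in 4.60% and TTGGCGC in 2.45%. TTTGAA was present for 2 of the 9 (Suz12 and Eed) and in 17.9% of all promoters, and CAGCTG for 2 of the 9 (Jarid2 and Rbbp7) and in 16.3%. The counts are of genes (9 genes with 10 promoters) and the percentages are of promoters, and the promoters were not matched in base composition. These matches describe letters in the windows, and no binding was measured in these cells.

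Ezh2, the catalytic subunit of dividing cells, fell at Day 7 in both populations, and fell further in myotubes than in reserve cells. Ezh2 (ENSMUSG00000029687.16) is on the minus strand of chromosome 6 in mm10, from 47530139 to 47595341. Its level was 15.1 and 15.4 CPM in the myotube libraries, 34.2 and 37.7 CPM in the reserve cell libraries, and 63.9 and 70.2 CPM in the myoblast libraries. The 3 groups did not overlap, and myotubes were the lowest. Ezh2 was 4.39-fold lower in myotubes than in myoblasts (log2 fold change -2.13, 95% interval -2.35 to -1.92, adjusted p = 3.46e-10 by edgeR's quasi-likelihood test). It was 1.87-fold lower in reserve cells than in myoblasts (log2 fold change -0.90, 95% interval -1.10 to -0.70, adjusted p = 2.58e-06). Between the Day 7 populations it was 2.35-fold lower in myotubes than in reserve cells (log2 fold change -1.23, 95% interval -1.45 to -1.02, adjusted p = 1.91e-07). In bulk RNA, fewer cells that express a gene and less of its RNA per cell cannot be told apart.

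Genes of S phase and mitosis moved with Ezh2. All 20 genes of that list were lower in myotubes than in myoblasts, with a median log2 fold change of -3.18 against 0.0045 over all genes tested. Over all genes, 32.9% were called lower in this comparison, 22.4% in reserve cells against myoblasts and 28.9% in myotubes against reserve cells. In reserve cells against myoblasts 18 of 20 were lower, with a median of -0.99 against 0.015 over all genes, and in myotubes against reserve cells all 20 were lower, with a median of -2.21 against -0.0067. The summed level of the list was 452 to 473 CPM in myotubes, 1736 to 1741 CPM in reserve cells and 3503 to 3560 CPM in myoblasts. Top2a, which untangles replicated DNA, had 49.8 and 52.2 CPM in myotubes, 256.8 and 263.3 CPM in the reserve cells and 557 and 586 CPM in myoblasts. Reserve cells held more of this RNA than myotubes, as they held more Ezh2. The part of cycling cells in the Ezh2 difference was not tested.

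Ezh1, the alternative catalytic subunit, was highest in reserve cells, and its place in myotubes depended on the scale. Ezh1 (ENSMUSG00000006920.14) is on the minus strand of chromosome 11, from 101191115 to 101226463. Its level was 69.5 and 71.6 CPM in myotubes, 100.2 and 96.9 CPM in the reserve cells, and 52.0 and 55.1 CPM in myoblasts, without overlap. In reserve cells Ezh1 was 1.84-fold higher than in myoblasts (log2 fold change 0.88, 95% interval 0.72 to 1.04, adjusted p = 4.96e-07 by edgeR). In myotubes it was 1.32-fold higher than in myoblasts (log2 fold change 0.40, 95% interval 0.24 to 0.56, adjusted p = 0.000386). Scaled by library totals, without TMM factors, the log2 fold change in myotubes against myoblasts was 0.12 (adjusted p = 0.173), so the increase in myotubes rests on the scaling. Myotubes had 1.40-fold less Ezh1 than reserve cells (log2 fold change -0.48, 95% interval -0.64 to -0.32, adjusted p = 9.45e-05). A pattern of this kind, higher in both Day 7 populations than in myoblasts and higher in reserve cells than in myotubes, was called for 1.57% of all genes tested and for Ezh1 as the only one of the 10. The opposite order, lower in both Day 7 populations and lowest in myotubes, was called for 11.5% of all genes and for Ezh2 and Suz12. Rbbp4, higher in both and highest in myotubes, followed a pattern of 12.1% of all genes.

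**Figure D1:**
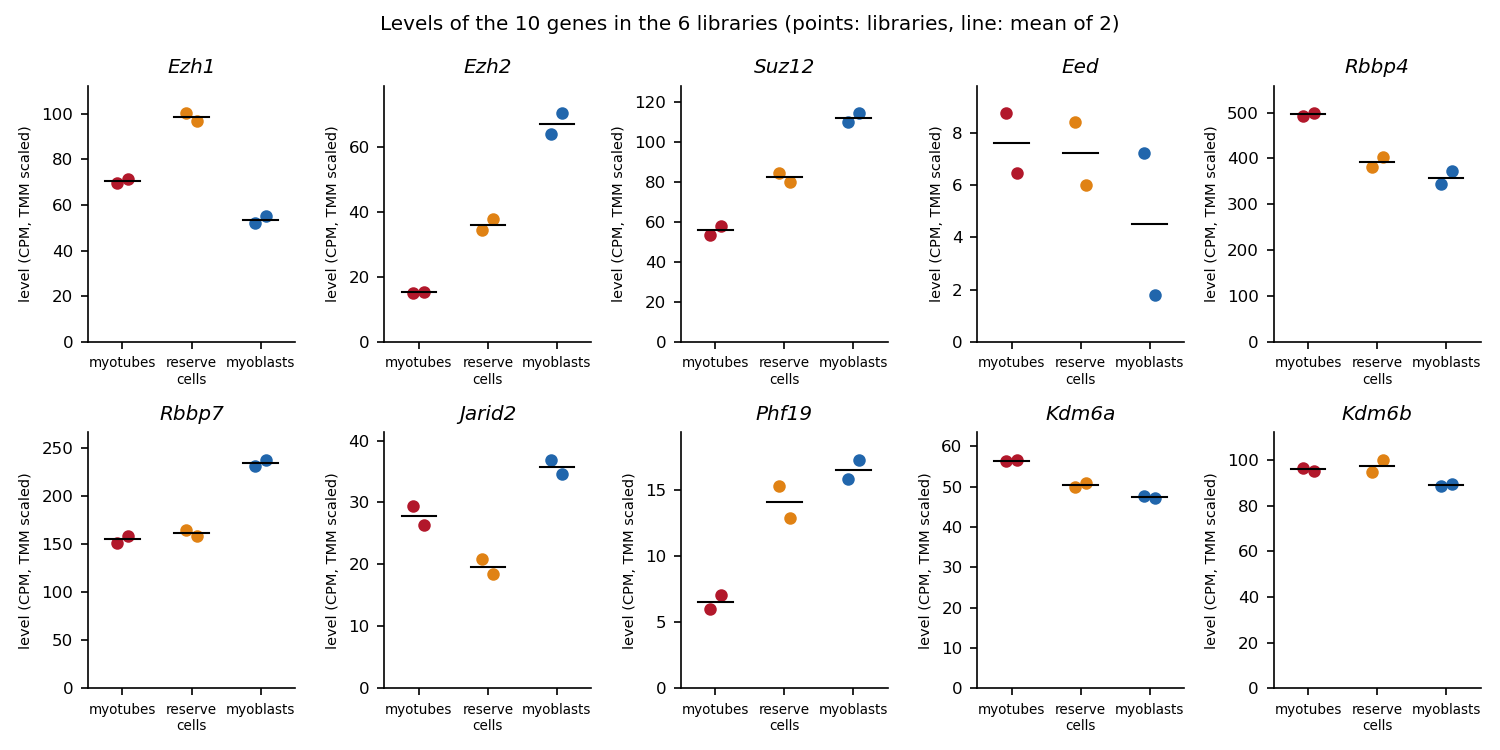
Levels of the 10 genes in CPM (vertical axes, from 0) in each library of myotubes, reserve cells and myoblasts, with points for libraries and a line for the mean of 2. Ezh2 stepped down to 15.1 and 15.4 CPM in myotubes, Ezh1 was highest at 100.2 and 96.9 CPM in reserve cells, and the 2 points of Eed lay far apart in every group.

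Set on a scale per transcript length (TPM, the counts of each transcript divided by its length and scaled to a fixed total), the 2 catalytic genes exchanged places. TPM carries no TMM factors, so between groups a gene can differ from its CPM through the scaling as well as through length. Ezh1 had 34.1 and 33.7 TPM in myotubes, 61.3 and 63.2 TPM in reserve cells, and 33.0 and 35.7 TPM in myoblasts. Ezh2 had 11.6 and 11.99 TPM in myotubes, 31.5 and 41.2 TPM in reserve cells, and 65.5 and 68.8 TPM in myoblasts. Ezh1 exceeded Ezh2 in all 4 Day 7 libraries, and Ezh2 exceeded Ezh1 in both myoblast libraries. On this scale the Ezh1 levels of myotubes and myoblasts overlapped. Of the summed TPM of both genes, Ezh1 made up 74.7% and 73.7% in myotubes, 66.1% and 60.5% in reserve cells, and 33.5% and 34.1% in myoblasts. The ratio of Ezh1 to Ezh2 was 2.95 and 2.81 in myotubes, 1.95 and 1.53 in reserve cells, and 0.503 and 0.519 in myoblasts. On the log2 scale this ratio was 1.53 ± 0.05 for myotubes, 0.79 ± 0.25 for reserve cells and -0.97 ± 0.03 for myoblasts (mean ± SD, n = 2 libraries a group). It was 5.64-fold higher in myotubes than in myoblasts, 3.38-fold higher in reserve cells than in myoblasts, and 1.67-fold higher in myotubes than in reserve cells. TPM also depends on how the counts of a gene are divided among transcripts of unlike length. With gene counts divided by the longest protein-coding transcript, the ratio was 3.04 and 3.08 in myotubes, 1.94 and 1.70 in reserve cells, and 0.539 and 0.520 in myoblasts. The SD of its log2 value in reserve cells was then 0.13. A ratio of 2 genes within a library does not depend on the scaling of that library. The ratio is given as a description, and its differences between groups were not tested.

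The summed level of both genes separated the Day 7 populations. Ezh1 and Ezh2 together had 45.7 and 45.7 TPM in myotubes, 92.8 and 104 TPM in reserve cells, and 98.5 and 104 TPM in myoblasts. The reserve cell and myoblast sums overlapped, and the myotube sums lay below both. Reserve cells thus had a sum that overlapped that of myoblasts with another makeup, whereas in myotubes the Ezh1 level per length overlapped that of myoblasts and the Ezh2 level was lower. These sums carry no TMM factors and are relative to all RNA in a library, and no measure of RNA per nucleus was used here. In reserve cells they also depend on how Ezh2 counts were divided among transcripts of unlike length, which differed between the libraries.

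**Figure D2:**
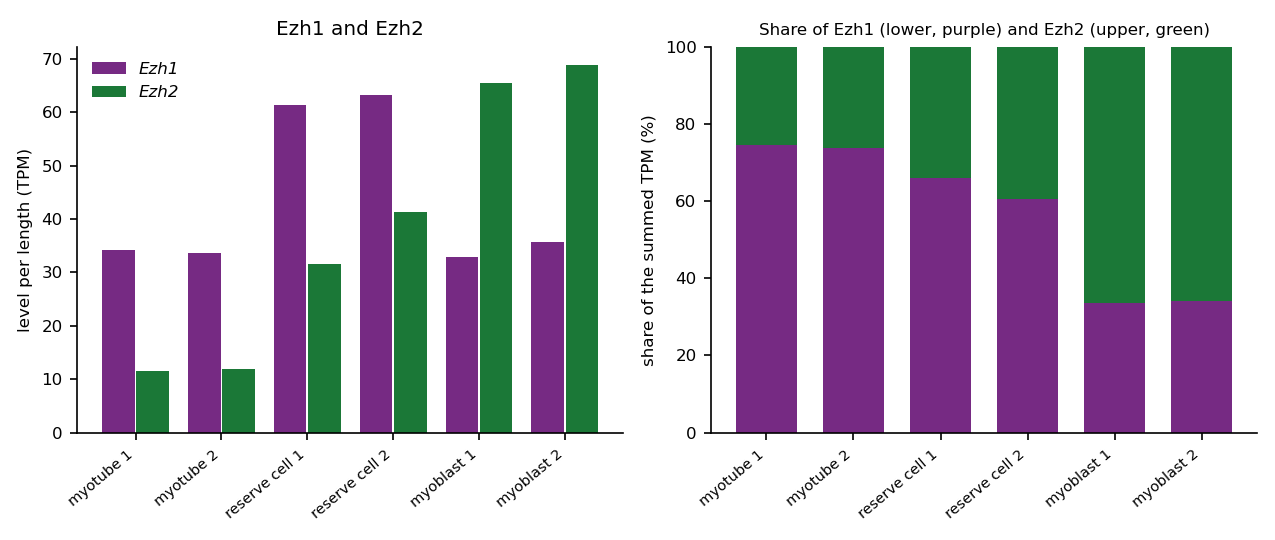
Level of Ezh1 (purple) and Ezh2 (green) per length in TPM for each library (left) and their shares of the summed TPM in percent (right). Ezh1 held 74.7% and 73.7% in the myotube libraries, 66.1% and 60.5% in the reserve cell libraries and 33.5% and 34.1% in the myoblast libraries.

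Among the core partners, Suz12, which holds the complex together, fell in the same order as Ezh2 but by less. Suz12 (ENSMUSG00000017548.15, chromosome 11 from 79993106 to 80034123, plus strand) had 53.6 and 57.7 CPM in myotubes, 84.4 and 80.0 CPM in the reserve cells, and 110.0 and 114.2 CPM in myoblasts. The groups did not overlap. It was 2.01-fold lower in myotubes than in myoblasts (log2 fold change -1.01, 95% interval -1.17 to -0.85, adjusted p = 5.40e-08). It was 1.36-fold lower in reserve cells than in myoblasts (log2 fold change -0.45, adjusted p = 0.000234) and 1.48-fold lower in myotubes than in reserve cells (log2 fold change -0.56, adjusted p = 2.78e-05). Per length, Ezh2 and Suz12 stood at a ratio of 0.503 and 0.469 in myotubes, 0.668 and 0.913 in reserve cells, and 1.04 and 1.05 in myoblasts. Ezh1 and Suz12 stood at 1.49 and 1.32 in myotubes, 1.30 and 1.40 in reserve cells, and 0.522 and 0.545 in myoblasts. The Ezh1 ratios to Suz12 of the Day 7 populations lay above those of myoblasts and overlapped each other. With protein-coding transcripts only they did not overlap, at 1.37 and 1.32 in myotubes against 1.27 in each library of reserve cells, nor did they with gene counts divided by the longest transcript.

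Eed, the subunit that reads the methyl mark, was too uneven between replicates for a call. Eed (ENSMUSG00000030619.9, chromosome 7 from 89954654 to 89980983, minus strand) had 8.75 and 6.46 CPM in myotubes, 8.42 and 6.01 CPM in the reserve cells, and 7.23 and 1.798 CPM in myoblasts. All 3 groups overlapped. The log2 fold change in myotubes against myoblasts was 0.77 with a 95% interval of -1.07 to 2.61 (adjusted p = 0.386), and that in reserve cells against myoblasts was 0.69 with an interval of -1.13 to 2.52 (adjusted p = 0.474). Between myotubes and reserve cells it was 0.07 with an interval of -1.72 to 1.87 (adjusted p = 0.941). Each of these intervals includes changes of over 2-fold in either direction. The myoblast libraries decided the value, since without the first of them Eed was called higher at Day 7 (log2 fold change 2.06 in myotubes, adjusted p = 0.000747, and 2.00 in reserve cells, adjusted p = 0.00173). Its main transcript, Eed-201, had 108 and 56 estimated counts in myotubes, 145 and 96 in reserve cells, and 104 and 11 in myoblasts.

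The histone-binding pair RBBP4 and RBBP7, which PRC2 shares with other chromatin complexes such as NuRD, moved apart. Rbbp4 (ENSMUSG00000057236.10, chromosome 4 from 129307100 to 129335370, minus strand) had 494 and 498 CPM in myotubes, 382 and 403 CPM in the reserve cells, and 344 and 371 CPM in myoblasts. It was 1.39-fold higher in myotubes than in myoblasts (log2 fold change 0.47, 95% interval 0.37 to 0.58, adjusted p = 1.46e-06) and 1.26-fold higher in myotubes than in reserve cells (log2 fold change 0.34, adjusted p = 5.21e-05). Its increase of 1.10-fold in reserve cells against myoblasts (log2 fold change 0.13, adjusted p = 0.0372) was lost in 7 of 15 other settings, DESeq2 among them. Per length, Rbbp4 had 207 and 211 TPM in myotubes, 209 and 224 TPM in reserve cells, and 193 and 209 TPM in myoblasts. On this scale, which lacks TMM factors, myotubes overlapped both other groups. Rbbp7 (ENSMUSG00000031353.13, chromosome X from 162760402 to 162779092, plus strand) had 152 and 159 CPM in myotubes, 165 and 159 CPM in the reserve cells, and 231 and 238 CPM in myoblasts. It was 1.51-fold lower in myotubes than in myoblasts (log2 fold change -0.59, adjusted p = 3.41e-07) and 1.45-fold lower in reserve cells than in myoblasts (log2 fold change -0.53, adjusted p = 2.22e-06). The Day 7 populations overlapped in Rbbp7, with a log2 fold change of -0.06 in myotubes against reserve cells and a 95% interval of -0.18 to 0.06 (adjusted p = 0.360), and it was called lower in myotubes only with library totals (log2 fold change -0.27, adjusted p = 0.000653). Per length, the ratio of Rbbp4 to Rbbp7 was 1.60 and 1.55 in myotubes, 1.16 and 1.27 in reserve cells, and 0.745 and 0.779 in myoblasts. Rbbp7 was thus the higher of the pair in myoblasts and Rbbp4 at Day 7. Some reads of both genes may belong to neighbours. Rbbp4 overlaps Sync on the opposite strand, with 1351 to 4827 counts, and shares 521 bases with it. A lincRNA, Gm26722, is identical to Rbbp4 over 799 bases. No counted transcript was paired with this lincRNA, so it has no level here. Rbbp7 overlaps Txlng on the opposite strand, with 197 to 388 counts, and a processed pseudogene, Gm6382, is 97.1% identical to it over 942 bases but had only 28 to 67 counts. Whether strand was used in the counting is not stated.

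The accessory subunits, which steer PRC2 to its sites, differed in where they were lowest. Phf19, a Polycomb-like protein that joins PRC2 at CpG islands, had 5.97 and 7.10 CPM in myotubes, 15.3 and 12.9 CPM in the reserve cells, and 15.8 and 17.3 CPM in myoblasts. Phf19 (ENSMUSG00000026873.9, chromosome 2 from 34893757 to 34914026, minus strand) was 2.53-fold lower in myotubes than in myoblasts (log2 fold change -1.34, 95% interval -1.72 to -0.95, adjusted p = 1.75e-05) and 2.15-fold lower in myotubes than in reserve cells (log2 fold change -1.11, adjusted p = 0.000137). Its log2 fold change in reserve cells against myoblasts was -0.23, with a 95% interval of -0.60 to 0.14 (adjusted p = 0.292). Jarid2, a DNA-binding partner that recruits PRC2, had 29.4 and 26.3 CPM in myotubes, 20.9 and 18.4 CPM in the reserve cells, and 36.9 and 34.5 CPM in myoblasts. In CPM, reserve cells were the lowest and myoblasts the highest, without overlap. Per length, Jarid2 had 9.05 and 8.97 TPM in myotubes, 9.23 and 8.76 TPM in reserve cells, and 16.1 and 15.3 TPM in myoblasts. On this scale, which lacks TMM factors, the Day 7 populations overlapped. Jarid2 (ENSMUSG00000038518.15, chromosome 13 from 44729474 to 44921643, plus strand) was 1.81-fold lower in reserve cells than in myoblasts (log2 fold change -0.86, 95% interval -1.11 to -0.61, adjusted p = 4.10e-05) and 1.42-fold higher in myotubes than in reserve cells (log2 fold change 0.50, adjusted p = 0.00262). Its 1.28-fold lower level in myotubes than in myoblasts (log2 fold change -0.36, adjusted p = 0.0147) missed the threshold without the first myoblast library (adjusted p = 0.0942) and without the second myotube library (adjusted p = 0.0872). The order of Jarid2 in CPM, lower at Day 7 and lowest in reserve cells, was called for 1.05% of all genes tested.

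In CPM with TMM factors, the H3K27 demethylases differed between groups by at most 1.19-fold. Kdm6b (ENSMUSG00000018476.7, chromosome 11 from 69398508 to 69413675, minus strand) had 96.4 and 95.3 CPM in myotubes, 94.7 and 100.03 CPM in the reserve cells, and 88.5 and 89.5 CPM in myoblasts. It was called in none of the comparisons with TMM factors, with log2 fold changes of 0.11 in myotubes against myoblasts (95% interval -0.04 to 0.26), 0.13 in reserve cells against myoblasts (95% interval -0.02 to 0.28) and -0.02 in myotubes against reserve cells (95% interval -0.17 to 0.13). With library totals it was called lower in myotubes than in myoblasts (log2 fold change -0.17, adjusted p = 0.0402), so its direction turned with the scaling, and lower in myotubes than in reserve cells (log2 fold change -0.23, adjusted p = 0.0111). Per length, Kdm6b had 27.03 and 26.8 TPM in myotubes, 34.6 and 37.1 TPM in reserve cells, and 33.0 and 33.4 TPM in myoblasts. On this scale, which lacks TMM factors, myotubes lay below both other groups. A single transcript held 99.9% of the Kdm6b counts in each group, so the length used for it hardly changed between groups. Kdm6a, which also belongs to the MLL3/4 complexes that methylate enhancers, had 56.3 and 56.7 CPM in myotubes, 49.98 and 50.97 CPM in the reserve cells, and 47.6 and 47.1 CPM in myoblasts. Kdm6a (ENSMUSG00000037369.17, chromosome X from 18162575 to 18279936, plus strand) was 1.19-fold higher in myotubes than in myoblasts (log2 fold change 0.25, 95% interval 0.09 to 0.42, adjusted p = 0.0101), and with library totals this value was -0.024 (adjusted p = 0.798). The call was also lost with protein-coding transcripts only (adjusted p = 0.0547) and without the first or the second myoblast library (adjusted p = 0.0507 and 0.0616). Per length and without TMM factors, Kdm6a had 19.8 and 23.9 TPM in myotubes, 25.4 and 24.8 TPM in reserve cells, and 24.4 and 25.01 TPM in myoblasts, with myotubes the lowest. Its log2 fold change was 0.09 in reserve cells against myoblasts (95% interval -0.07 to 0.26, adjusted p = 0.355) and 0.16 in myotubes against reserve cells (95% interval -0.0030 to 0.33, adjusted p = 0.0882), the last of which was called with relative log expression factors (0.20, adjusted p = 0.0388). Uty, the Y-linked relative of Kdm6a, had 0 counts in all 6 libraries.

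Taking the 10 genes as a group, 8 were called in myotubes against myoblasts, 3 higher and 5 lower, where 65.5% of all genes tested were called, 32.7% higher and 32.9% lower. Their libraries did not overlap for 9 of the 10, against 82.9% of all genes. In reserve cells against myoblasts 6 were called, 2 higher and 4 lower, against 47.1% of all genes (24.7% higher and 22.4% lower), and the libraries did not overlap for 9, against 74.8%. In myotubes against reserve cells 6 were called, 2 higher and 4 lower, against 56.5% of all genes (27.6% higher and 28.9% lower), and the libraries did not overlap for 7, against 78.3%. A change of at least 2-fold was called for 3 of the 10 in myotubes against myoblasts (35.2% of all genes), for none in reserve cells against myoblasts (16.9%) and for 2 in myotubes against reserve cells (23.4%). The shares called among the 10 lay near those of all genes, so these counts are no result about the 10 genes. With library totals in place of TMM factors, the split in myotubes against myoblasts was 1 higher and 6 lower among the 10, and 3737 higher and 6504 lower among all genes, against 5056 and 5081 with TMM factors. In myotubes against reserve cells library totals gave 2 higher and 6 lower among the 10, and 2998 higher and 5740 lower among all genes, against 4272 and 4467. Over all genes the median log2 fold change then moved to -0.27 in myotubes against myoblasts and to -0.21 in myotubes against reserve cells. The decreases of Ezh2, Suz12 and Phf19 in myotubes and the increase of Ezh1 in reserve cells exceed this shift and were called under all 15 other settings.

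**Figure D3:**
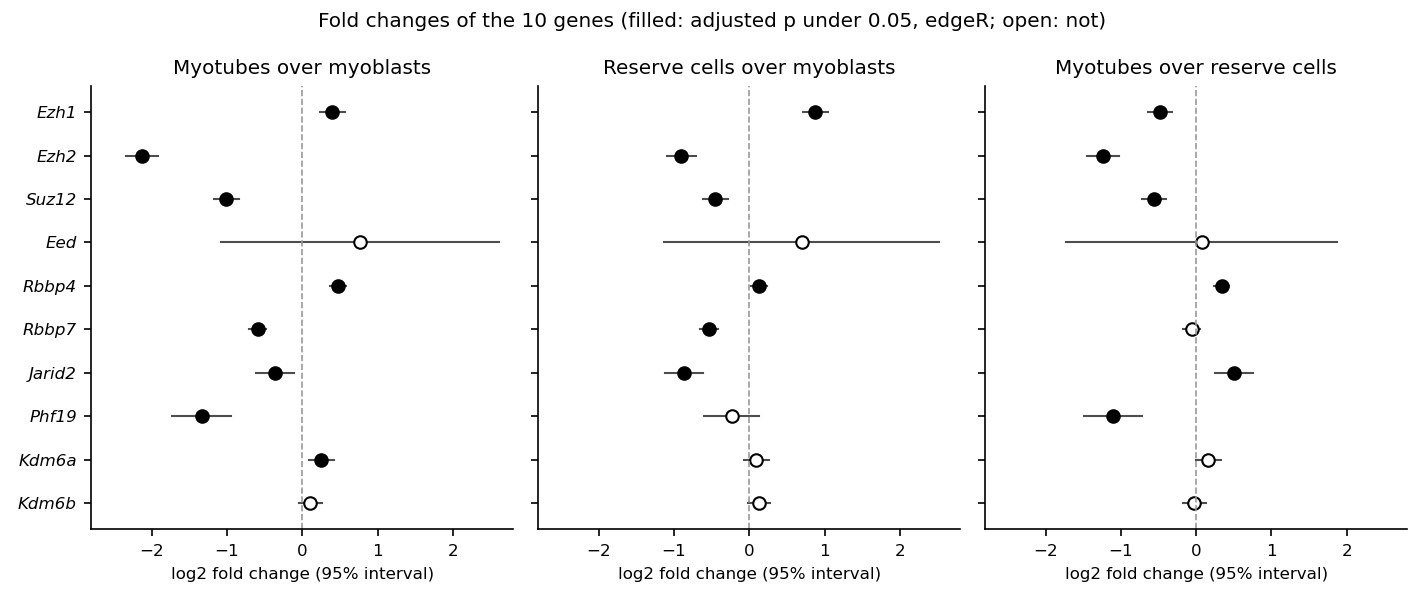
Log2 fold changes with 95% intervals (horizontal axes) of the 10 genes in the 3 comparisons, filled where the adjusted p was under 0.05. Ezh2 lay at -2.13, -0.90 and -1.23 from left to right, Ezh1 at 0.40, 0.88 and -0.48, and the intervals of Eed spanned 0 in all 3.

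In levels per length, the order of the 10 genes differed between the groups. In myotubes Rbbp4 (209 TPM) and Rbbp7 (132 TPM) were followed by Ezh1 at 33.9 TPM, and Ezh2 at 11.8 TPM was the seventh. In reserve cells the order began with Rbbp4 (216 TPM), Rbbp7 (178 TPM), Ezh1 (62.2 TPM) and Suz12 (46.2 TPM), and Ezh2 (36.4 TPM) overlapped Kdm6b (35.8 TPM) next below it. In myoblasts Rbbp7 (263 TPM) stood above Rbbp4 (201 TPM), Ezh2 (67.2 TPM) and Suz12 (64.3 TPM), and Ezh1 (34.3 TPM) overlapped Kdm6b (33.2 TPM). Eed, Phf19 and Jarid2 held the last 3 places in every group, with Phf19 the lowest in myotubes at 3.27 TPM. In reserve cells Eed overlapped Phf19, and Phf19 overlapped Jarid2.

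Transcript estimates did not resolve isoforms of Ezh2. Its counts were divided among Ezh2-201, Ezh2-202 and Ezh2-204, all protein coding. Ezh2-201 took 42.7% and 61.5% of the gene's counts in myotubes, 81.1% and 19.3% in reserve cells, and 36.5% and 47.7% in myoblasts. The 2 reserve cell libraries thus stood at the 2 ends of all 6, although their sums over the gene were 34.2 and 37.7 CPM. Ezh2-202, with 2115 bases against 2787 for Ezh2-201, took 2.36% and 53.1% of the counts in these libraries. The Ezh2 levels in TPM, and the ratios and shares made from them, depend on this division. Ezh1 was carried by Ezh1-203 (64.9% and 45.4% in myotubes, 37.3% and 43.2% in reserve cells, and 54.0% and 50.8% in myoblasts), Ezh1-202 and Ezh1-201. In an edgeR fit of all 35501 transcripts tested, none of the transcripts of Ezh1 or Ezh2 that held at least 10% of their gene's counts was called in any comparison. Rbbp4, Phf19 and Kdm6b each had 1 transcript with over 95% of the counts in every group, so that their gene and transcript levels are nearly the same.

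**Figure D4:**
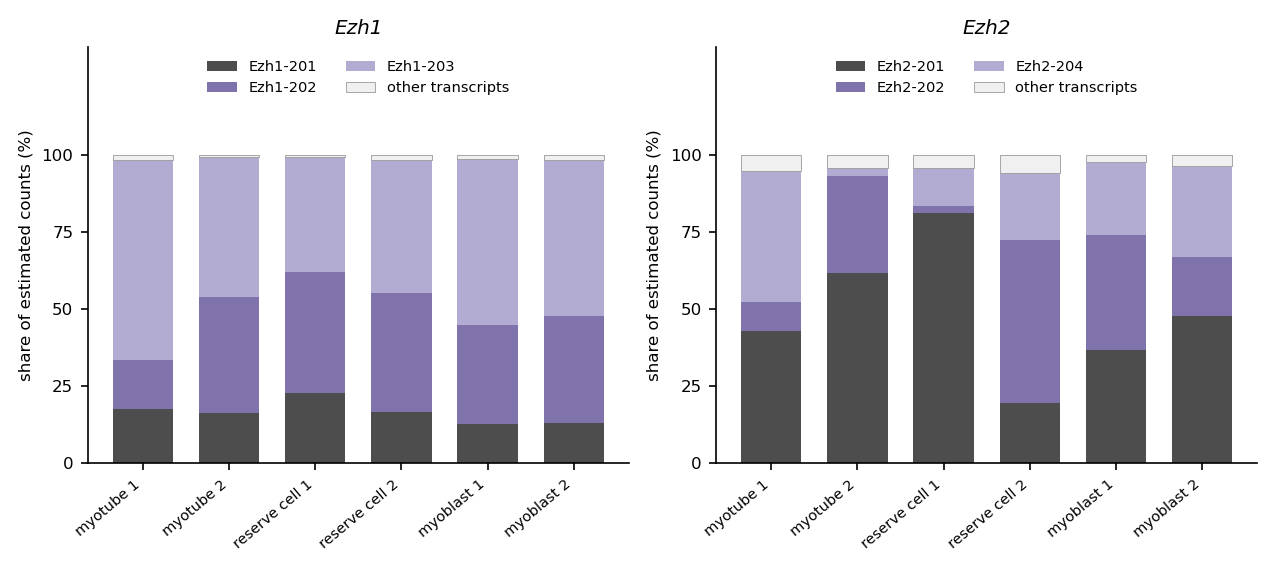
Share of the estimated counts (percent, vertical axes) of Ezh1 and Ezh2 that fell on each annotated transcript in each library. Ezh2-201 took 81.1% in one reserve cell library and 19.3% in the other, so the division among transcripts varied between replicates.

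Other parts of the Polycomb system gave a mixed picture. Of 7 further PRC2 accessory genes 6 were tested. In myotubes against myoblasts 33.3% of these were called higher and 16.7% lower, against 32.7% and 32.9% of all genes tested. Lcor and Lcorl, whose loci encode PALI proteins of PRC2, were higher in myotubes than in myoblasts (log2 fold changes 0.74 and 0.45, adjusted p = 0.00183 and 0.0382), and Epop, which links PRC2 to elongin, was lower (log2 fold change -2.00, adjusted p = 0.00026). Epop was low throughout, with 1.92 and 1.05 CPM in myotubes (27 and 18 estimated counts) and 5.72 and 6.04 CPM in myoblasts. With library totals Lcor and Epop kept their calls and Lcorl did not (log2 fold change 0.17, adjusted p = 0.416). Aebp2, Mtf2 and Phf1 were not called in any of the 3 comparisons with TMM factors. With library totals Phf1 and Aebp2 were called lower in myotubes than in myoblasts (log2 fold changes -0.30 and -0.29, adjusted p = 0.0114 and 0.00132). Both were then also lower in myotubes than in reserve cells (-0.39 and -0.17, adjusted p = 0.00267 and 0.0379), and Mtf2 stayed without a call. None of the 6 was called in reserve cells against myoblasts, where 47.1% of all genes were called. Ezhip, an inhibitor of PRC2, had 0 counts in all 6 libraries.

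PRC1 is the complex that modifies histone H2A, and those of its forms that hold CBX subunits bind the methyl mark through them. Of its 21 genes, 3 were higher and 10 lower in myotubes than in myoblasts (median log2 fold change -0.34, and 2 higher and 15 lower with library totals), and 3 were higher and 10 lower in reserve cells than in myoblasts (median -0.22). In both comparisons these were 14.3% higher and 47.6% lower. Of all genes tested, 32.7% were higher and 32.9% lower in the first comparison, and 24.7% and 22.4% in the second. In myotubes against reserve cells 1 was higher and 11 lower (median -0.25), and the number lower was 7 with relative log expression factors and 6 with DESeq2. Over all genes tested, 27.6% were higher and 28.9% lower in that comparison with TMM factors. Cbx6 had 59.1 and 61.5 CPM in myotubes, 202 and 187 CPM in the reserve cells, and 250 and 227 CPM in myoblasts. Cbx2 had 7.18 and 5.18 CPM in myotubes, 10.1 and 11.4 CPM in the reserve cells, and 24.4 and 23.7 CPM in myoblasts. Both CBX genes were lowest in myotubes, with log2 fold changes against myoblasts of -1.98 for Cbx6 (adjusted p = 1.31e-11) and -1.97 for Cbx2 (adjusted p = 5.65e-07). Pcgf5, a subunit of a variant PRC1, rose in both Day 7 populations, to 36.4 and 37.9 CPM in myotubes and 45.3 and 42.8 CPM in reserve cells, against 19.9 and 21.9 CPM in myoblasts. Its log2 fold change was 0.83 in myotubes (adjusted p = 5.17e-06) and 1.07 in reserve cells (adjusted p = 8.27e-07). Pcgf3, a close relative, rose more in myotubes, with a log2 fold change of 0.82 against myoblasts (adjusted p = 1.62e-08) and of 0.54 against reserve cells (adjusted p = 1.75e-06). These calls of Cbx6, Cbx2, Pcgf5 and Pcgf3 were kept with library totals.

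Of the PR-DUB genes, which remove the H2A mark of PRC1, 7 were tested, and 2 were higher and 2 lower in myotubes than in myoblasts. These shares of 28.6% each lay near the 32.7% and 32.9% of all genes tested, so the counts are no result about PR-DUB. The higher pair, Bap1 and Asxl1 (log2 fold changes 0.36 and 0.26), did not keep the call with library totals (0.08 and -0.02). Foxk1 and Foxk2 were lower (log2 fold changes -0.70 and -0.49) on both scales. Of 9 tested genes of the MLL3/4 complexes, 3 were lower and none higher in myotubes than in myoblasts (5 lower with library totals). The 33.3% called lower lay near the 32.9% of all genes, of which 32.7% were called higher. Paxip1 had the smallest adjusted p of these genes (log2 fold change -0.92, adjusted p = 1.30e-05). The acetyltransferases that place the opposing mark on H3K27, Ep300 and Crebbp, were not called in any comparison with TMM factors. Their log2 fold changes in myotubes against myoblasts were -0.11 for Ep300 and -0.17 for Crebbp, and with library totals both were called lower (-0.39 and -0.45).

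**Figure D5:**
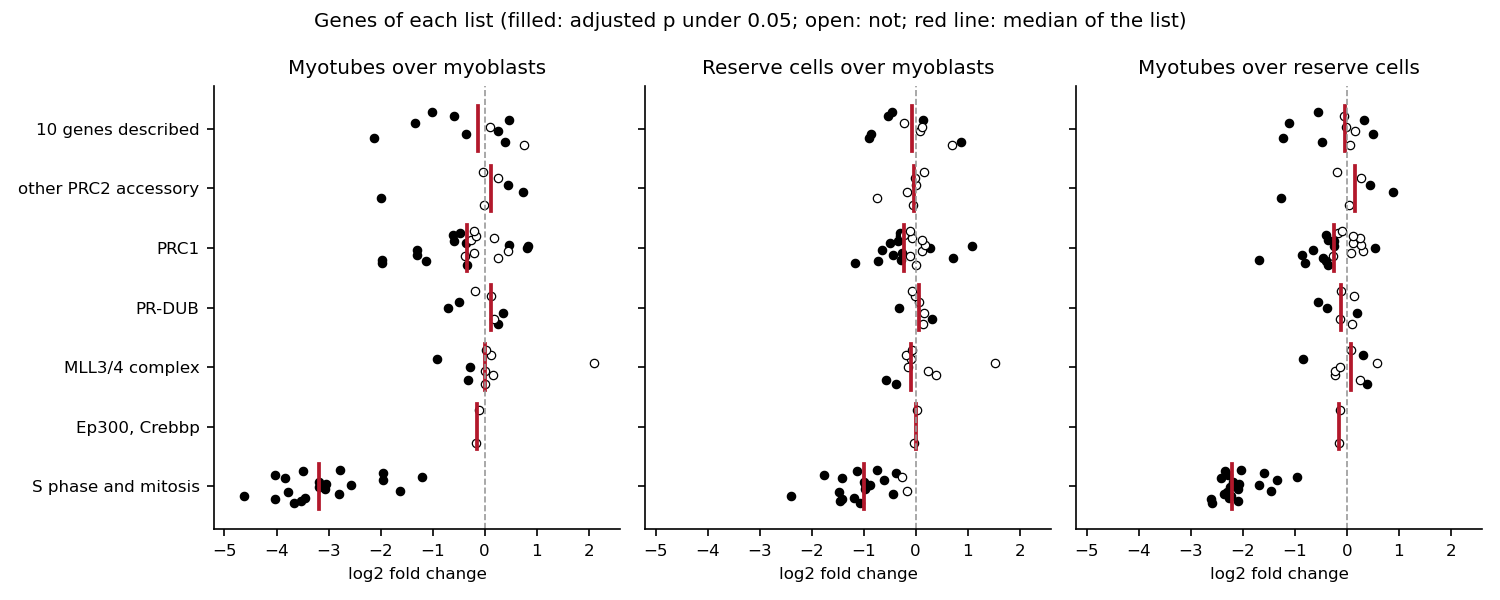
Log2 fold changes (horizontal axes) of the genes of each list in the 3 comparisons, filled where the adjusted p was under 0.05, with a red line at the median of the list. The 20 genes of S phase and mitosis had medians of -3.18, -0.99 and -2.21 from left to right, while the Polycomb lists lay on both sides of 0 with medians between -0.34 and 0.16.

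Genes known as PRC2 targets in muscle cells were read beside the complex. Myog, the gene of myogenin, had 1162 and 1144 CPM in myotubes, 521 and 514 CPM in the reserve cells, and 106 and 101 CPM in myoblasts. Ckm, the muscle creatine kinase, had 1417 and 1367 CPM in myotubes, 277 and 296 CPM in the reserve cells, and 7.53 and 6.502 CPM in myoblasts. Both were called higher in the 2 Day 7 populations than in myoblasts, and so was Myh4, a fast myosin heavy chain. Pax7, which marks muscle stem cells, had 8.75 and 11.2 CPM in myotubes, 61.3 and 65.5 CPM in the reserve cells, and 72.9 and 68.3 CPM in myoblasts. Pax7 was lower in myotubes than in myoblasts (log2 fold change -2.81, adjusted p = 7.77e-11) and was not called in reserve cells against myoblasts (log2 fold change -0.15, adjusted p = 0.215). Cdkn2a, a well known PRC2 target, had 0 counts in all 6 libraries. No histone mark was measured, and whether any of these genes followed PRC2 was not tested.

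The genes whose levels ran most like those of Ezh2 and Ezh1 were sought over the 6 libraries, which form 3 groups of 2. For Ezh2 these were Gpr137b-ps, Abl1, Errfi1, Nab1 and S100pbp, with Pearson r of log2 CPM from 0.9988 to 0.9997. For Ezh1 they were Scarb2, Dll1, Adamts5, Fam198b and Nudt4, with r from 0.9951 to 0.9974. Dll1, a Notch ligand, averaged 28.4 CPM in myotubes, 77.7 CPM in reserve cells and 11.3 CPM in myoblasts. Among the 9979 genes compared with each, r was at least 0.9 for 24.2% with Ezh2 and for 3.77% with Ezh1. The levels of Ezh2 thus followed a course shared by many genes, and those of Ezh1 a rarer one. These values describe the libraries, without a test, and a high r is common where 6 libraries form 3 groups.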

How the data were processed

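The 6 RNA-seq libraries comprise 2 of myotubes, 2 of reserve cells and 2 of myoblasts, called biological replicates by the submitters. Per the labels and the study's methods, the authors aligned paired-end reads to mm10 with HISAT2, used SAMtools to filter alignments and StringTie to quantify transcripts, and deposited 1 estimated count per transcript and library, a whole number not scaled for depth. The annotation release, program versions and strand setting: not given in the sources used here. The authors evaluated differential expression with DESeq2. A deposited table of the whole series, which holds the same estimated counts multiplied by 2, in part less 1, was not used.

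Transcripts were paired with genes through GENCODE release M21 (141374 of 142604), and counts were summed to genes. The 1230 unpaired transcripts (0.375% to 0.872% of counts) were kept under their own identifiers. Levels are CPM with TMM factors (0.889 to 1.09). TPM was computed here from each transcript's count and length, without TMM factors. Only TPM is used between genes, and where TPM is set between groups it lacks the TMM scaling of CPM. Genes were filtered with filterByExpr (minimum count 10) and tested in edgeR 4.0.16 (R 4.3.3; glmQLFit and glmQLFTest, 1 fit of the 6 libraries, group only), with Benjamini-Hochberg adjustment over 15467 genes and a threshold of 0.05. Intervals are 95%. With 2 libraries a group, calls rest on a spread pooled across genes (biological coefficient of variation 12.9%), and replicates differed by more than sampling noise (chi-square per degree of freedom 6.53 to 8.30). The procedure was tested on simulated counts in which few genes changed, in myotubes only. That setting does not bear on the choice between TMM factors and library totals.

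The 10 genes, the lists, the motifs and the tests were chosen with earlier results of these data known. The text names all 10 genes, from each list genes among the 4 with the smallest adjusted p in a comparison or all genes of lists with 5 or fewer tested, and the 5 genes most correlated with Ezh1 and with Ezh2 (among genes averaging 10 CPM or more in some group). Aebp2, Mtf2, Phf1, Asxl1, genes at 0 counts and marker genes outside this rule were named after their values were seen. The alternatives were DESeq2 1.42.0, relative log expression (RLE) factors, scaling by library totals, a stricter filter (10 CPM in 2 libraries) or none, a fit of only the 4 libraries of a comparison, a block for the replicate number, protein-coding transcripts only, mitochondrial genes left out (1.89% to 5.37% of counts) and each library left out.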

Additional observations from a re-analysis of the deposited data

How the results depend on the processing

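Under 15 alternatives, the numbers of all genes and of the 10 genes called stayed within 1.5 times their values in each comparison. Of 90 recomputed fold changes of Ezh1 and Ezh2, 89 kept direction and call. The exception was Ezh1 in myotubes against myoblasts with library totals (log2 fold change 0.12, adjusted p = 0.173, against 0.40). Library totals also turned Kdm6a in myotubes against myoblasts (-0.024) and against reserve cells (-0.044), Kdm6b in myotubes against myoblasts (-0.17) and Eed in myotubes against reserve cells (-0.13). Eed in that comparison also turned with protein-coding transcripts (-0.045) and without the first myotube or the second reserve cell library, and in reserve cells against myoblasts without the second myoblast library. With single libraries left out, Eed ranged from -0.0066 to 2.00 in reserve cells against myoblasts and from -0.16 to 0.33 in myotubes against reserve cells. Kdm6b in myotubes against reserve cells turned with DESeq2 and with RLE factors (0.016 each) and without the second reserve cell library (range with single libraries left out -0.067 to 0.0063). None of these turned values was called apart from Kdm6b with library totals (adjusted p = 0.0402), and the cause of the others was not tested. With protein-coding transcripts the log2 ratio of Ezh1 to Ezh2 differed by 2.62 between myotubes and myoblasts, against 2.495. The filter at 10 CPM removed Eed.

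With 1 library left out, the remaining library of its group is assumed to vary like the others. The genes called were then 9116 to 10139 in myotubes against myoblasts, 5862 to 7625 in reserve cells against myoblasts and 7464 to 8487 in myotubes against reserve cells. Of the 10 genes, 7 to 8, 5 to 6 and 6 were called. The Ezh1 log2 fold changes were 0.35 to 0.43, 0.83 to 0.92 and -0.52 to -0.46 in these comparisons, and those of Ezh2 were -2.21 to -2.07, -0.97 to -0.83 and -1.31 to -1.17. The deviations of same-numbered libraries were correlated at 0.0022, 0.040 and -0.032, so no shared effect of the number was seen. These values cannot tell whether same-numbered libraries came from the same culture. With the replicate number as a block, 10013, 7201 and 8549 genes were called, against 10137, 7291 and 8739 without it, and it changed no call among the 10. Eed had 39 to 167 estimated counts a library, with 124 and 39 in the myoblast libraries, of which the second was the deeper.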
